A study of Mus musculus with 16 samples.

Results

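Gli2 occupancy was compared between medulloblastomas of 2 genotypes through 1 deposited peak list for each. Members were the Gli2 peaks on chromosomes 1 to 19. The SmoM2 list held 136 of them and the DKO list 1397, together 1533 of the 209255 regions in all lists of the series. The first group, SmoM2 overexpression, carried an activated form of Smoothened. The second, the Sufu;Spop double knockout (DKO), had lost both Sufu and Spop. Both were tumour tissue taken at postnatal day 13. The labels name no promoter or Cre line, and leave out whether animals were separate or pooled. Each list stands for 2 chromatin immunoprecipitation sequencing (ChIP-seq) libraries, 4 of the 16 in the series. The spread between replicates therefore could not be set beside any difference between the genotypes, and the number of reads behind each list is unknown. The lists hold no expression values, so the tissue label was not checked against cell type markers. Sequences and genes at the sites are not analysed here. All positions are in mouse build mm9.

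Gli2 is a zinc finger transcription factor that carries the Hedgehog signal to DNA in granule neuron progenitors, the cells from which Hedgehog-driven medulloblastoma arises. In the pathway, Smoothened relays the signal at the membrane. Sufu holds Gli proteins in the cytoplasm, and Spop marks them for degradation as the substrate adaptor of a Cul3 ubiquitin ligase. SmoM2 thus acts upstream of Sufu, whereas the double knockout removes 2 restraints that act on Gli proteins directly. A narrow peak gives the stretch of DNA where the antibody enriched fragments and a summit, the position of highest signal, which lies close to the bound sequence for a factor of this kind.

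The greater part of the SmoM2 Gli2 peaks had a counterpart in the full DKO list, 1 peak for 1 peak. Of the 136 SmoM2 peaks, 82 shared at least 1 base with a DKO peak (60.3%, Wilson 95% interval 51.9–68.1%), and they met 82 different DKO peaks (5.87% of that list, 4.75–7.23%). No peak of either list met more than 1 peak of the other. This left 54 peaks in the SmoM2 list only and 1315 in the DKO list only, and DKO peaks were 10.3 times as many as SmoM2 peaks. The share depended on that length: against the 136 highest DKO peaks only, 31.6% (24.4–39.8%) of the SmoM2 peaks were matched. The intervals cover counting error only, and a site missing from a list may still have held some Gli2. The rule of 1 shared base was rarely close to being decisive. The least overlap of a matched site was 45 bases, on chromosome 5, between the SmoM2 peak at 15011681–15011800 and the DKO peak at 15011584–15011725. The nearest pair left unmatched lay 249 bases apart, on chromosome 16 at 59638928–59639060 and 59639310–59639424.

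Where Gli2 was called in both genotypes, the summits nearly coincided. The distance between the summits was 13.5 bp at the median (quartiles 7 and 23.8 bp, n = 82 sites), against a median peak width of 138 bp in the SmoM2 and 165 bp in the DKO list. The summits lay within 10 bp of each other at 33 sites (40.2%, 30.3–51.1%), within 25 bp at 65 (79.3%, 69.3–86.6%) and within 50 bp at 76 (92.7%, 84.9–96.6%). All 82 SmoM2 summits fell inside the DKO peak. The DKO summit was at the lower coordinate at 46 sites and at the higher coordinate at 36, and the signed distance had a median of -2 bp, so neither side prevailed by much.

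Only 1 site had summits more than 100 bp apart. On chromosome 1, the SmoM2 peak at 37179199–37179358 and the DKO peak at 37179119–37179412 had summits 104 bp apart. Its DKO peak had a second DKO peak of the same list nearby, at a distance between summits of 1095 bp. The next largest distances were 92 bp at the site on chromosome 5 named above, 74 bp on chromosome 8 at 90972850–90973006 and 60 bp on chromosome 2 at 92872257–92872452 (SmoM2 coordinates). At the site of highest rank in both lists, on chromosome 1 at 157059649–157059879 in SmoM2 tumours, the summits were 15 bp apart. Summit distance had a Spearman rho of 0.35 with SmoM2 rank, -0.15 with DKO rank and 0.31 with DKO peak width over the 82 sites. These are descriptions of sites that share the same libraries, so no p is given.

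DKO peaks were wider than SmoM2 peaks at the same site. The DKO peak was the wider at 76 of the 82 sites, and the ratio of DKO to SmoM2 width was 1.62 at the median (quartiles 1.30 and 2.15). At 68 sites the SmoM2 peak lay wholly inside the DKO peak, and at 3 the reverse held. The largest ratio was 5.20, on chromosome 8, where the SmoM2 peak at 122828534–122828660 measured 127 bp and the DKO peak at 122828142–122828801 measured 660 bp. On chromosome 7 at 133152534–133152651, a SmoM2 peak of 118 bp lay within a DKO peak of 520 bp. Called width also grew with −log10 q, the caller's significance after adjustment, with a Spearman rho over peaks of 0.58 in the DKO and 0.21 in the SmoM2 list. Since depth is unknown, a wider bound stretch and a more strongly called peak cannot be told apart.

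**Figure D1:**
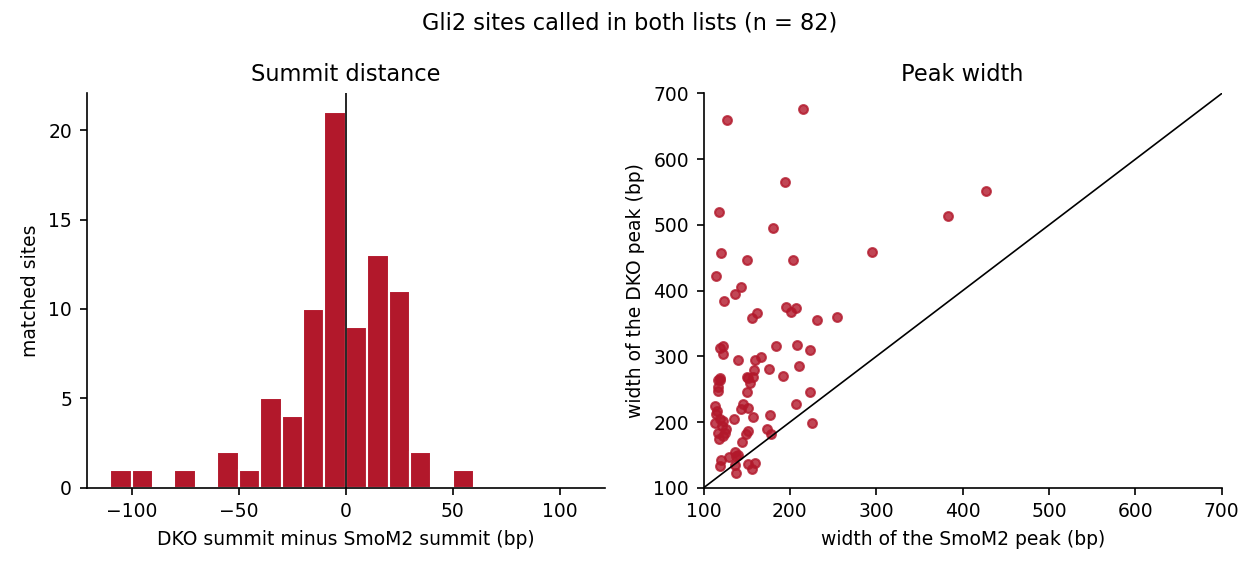
Left, a histogram of the summit distance in bp (DKO minus SmoM2) at the 82 sites called in both lists. Right, the width in bp of the DKO peak against that of the SmoM2 peak, 1 point per site, with the line of equal width. Distances gather around 0 with a median size of 13.5 bp, and 76 points lie above the line.

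Over each list as a whole, the sites called in both genotypes had the wider peaks at the median. In the DKO list, the median width was 261.5 bp for matched peaks (95% interval of the median 220–285, n = 82) and 162 bp for DKO-only peaks (159–166, n = 1315). In the SmoM2 list the medians were 149.5 bp (136–156, n = 82) and 131.5 bp (123–138, n = 54). Matched peaks also ranked higher in the DKO list, so widths were set side by side at like rank. Among the highest decile of DKO peaks by −log10 q, the median was 309 bp for 43 matched and 256 bp for 97 DKO-only peaks, and in the next decile 234.5 bp for 18 and 201 bp for 122. This order did not hold further down: decile 3 had 183 bp for 7 matched and 188 bp for 133 DKO-only peaks. Matched peaks were also the narrower in deciles 5, 7 and 10 and the wider in deciles 4, 6 and 8, with 1 to 5 matched peaks in each. Much of the difference in width within the DKO list thus went with rank, since DKO-only peaks alone ranged from 256 bp in the highest decile to 133 bp in the lowest. In the highest quartile of the SmoM2 list by rank, 20 matched peaks had a median of 159.5 bp and 14 SmoM2-only peaks one of 126 bp. In the lowest quartile the order was the reverse, at 121 bp for 15 matched and 134 bp for 19 SmoM2-only peaks.

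The widest peaks of each list are given as examples. All 5 of the widest SmoM2 peaks were called in DKO tumours, beside 60.3% of that list as a whole. They ran from 231 to 427 bp, the widest being on chromosome 13 at 112788656–112789082, where the DKO peak measured 551 bp. Of the 5 widest DKO peaks, 2 were called in SmoM2 tumours, beside 5.87% of the whole list. The widest of all, 834 bp on chromosome 11 at 120123355–120124188, was in the DKO list only. So were the peaks of 691 bp on chromosome 3 at 105516837–105517527 and 676 bp on chromosome 11 at 119383795–119384470.

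Matched peaks stood high in the DKO ranking and were spread over the SmoM2 ranking. Ranks follow −log10 q (1 is highest), and a rank percentile runs from 0 for the highest to 100 for the lowest peak of a list. The matched peaks had a median rank percentile of 8.80 in the DKO list (95% interval of the median 4.51–12.8), compared with 53.4 for DKO-only peaks. In the SmoM2 list the medians were 45.6 (34.2–54.8) and 58.8 (43.8–74.6), and these intervals overlap. Over the 82 sites the 2 ranks had a Spearman rho of 0.30, given as a description without a p. A threshold of 10 on −log10 q in both lists gave a rho of 0.080. With the DKO list cut to its 136 highest peaks, rho was 0.50. Ranks carry ties: the SmoM2 list held 97 distinct values of −log10 q among 136 peaks and the DKO list 422 among 1397.

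The 10 sites with the lowest sum of ranks lay between ranks 1 and 45 in the SmoM2 list and 1 and 28 in the DKO list. The top site on chromosome 1 was followed by the site on chromosome 13 at 112788656–112789082, with SmoM2 rank 14 and DKO rank 6. The site on chromosome 14 at 54763634–54763840 had ranks 9 and 15, and that on chromosome 13 at 64081797–64081997 had ranks 15 and 13. Since the sites were chosen by the sum of their ranks, high standing in both lists was set by that choice. Their order differed between the lists. The site on chromosome 2 at 181408969–181409152 had ranks 22 and 11. All 10 had summits at most 38 bp apart and a wider DKO peak. H3K27ac, a mark of active promoters and enhancers, was called in SmoM2 tumours under 9 of the SmoM2 peaks and in DKO tumours under 9 of the DKO peaks. Over all 82 matched sites each of these shares was 73.2%. Among matched DKO peaks of the highest decile by rank, 90.7% overlapped H3K27ac of DKO tumours, so the 9 were near that share.

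Other sites stood far apart in rank percentile, which puts both lists on the same scale but does not offset their different lengths. Only a small part of the longer DKO list could be matched. Matched peaks had a median percentile of 8.80 in the DKO and 45.6 in the SmoM2 list. With the DKO list cut to the length of the SmoM2 list, these medians were 23.2 and 41.5. How far list length set the differences towards DKO was not tested. The site on chromosome 8 at 87338657–87338773 had percentile 84.6 in the SmoM2 list (rank 114) and 5.33 in the DKO list (rank 75). That on chromosome 5 at 32405440–32405606 had percentiles 76.1 (SmoM2 rank 104) and 2.04 (DKO rank 29). The opposite order was found on chromosome 14 at 3015426–3015581, with percentile 19.5 in the SmoM2 list (rank 26) and 70.5 in the DKO list (rank 963). It was also found on chromosome 2 at 156817713–156817872, with percentiles 13.6 and 60.1, and on chromosome 10 at 79266537–79266672, with 6.99 and 44.2. All 5 sites with the largest difference in percentile towards DKO had a wider DKO peak, whereas 2 of the 5 with the largest difference towards SmoM2 did. Of the 6 sites where the SmoM2 peak was the wider, 3 were among those 5.

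**Figure D2:**
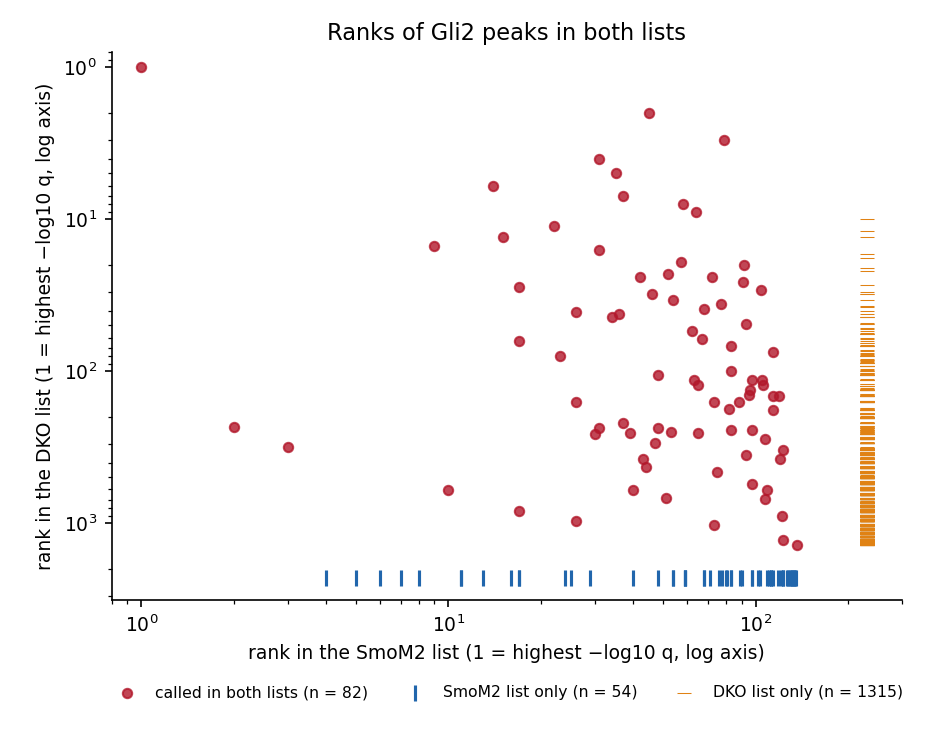
Rank of each Gli2 peak by −log10 q in the SmoM2 list (horizontal, log axis) and in the DKO list (vertical, log axis, 1 at the top). Red points are the 82 matched sites, blue marks at the bottom the 54 SmoM2-only peaks and orange marks at the right the 1315 DKO-only peaks. SmoM2-only peaks occupy ranks 4 to 8, and matched sites spread over the DKO ranks from 1 to 1391.

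Recurrence fell steeply along the DKO ranking. Along the SmoM2 ranking it showed no steady fall, although the lowest quartile had the lowest share. Of the 20 highest DKO peaks, 15 were called in SmoM2 tumours (75.0%, 53.1–88.8%), of the 101 highest (ties included) 36 (35.6%) and of the 200 highest 51 (25.5%, 20.0–32.0%). With 1 match per peak, 136 SmoM2 peaks could match only a small part of 1397 DKO peaks. A high share at the top of the DKO ranking therefore had to fall further down. Of the 21 highest SmoM2 peaks (ties included), 10 were called in DKO tumours (47.6%), of the 50 highest 34 (68.0%) and of the 101 highest 67 (66.3%). In the SmoM2 list, from the highest to the lowest rank quartile of 34 peaks each, 20 (58.8%, 42.2–73.6%), 27 (79.4%, 63.2–89.7%), 20 (58.8%, 42.2–73.6%) and 15 (44.1%, 28.9–60.5%) were called in DKO tumours. The intervals of the highest and lowest quartile overlap, whereas those of the quartile next to the highest and the lowest do not. A low fold enrichment, the peak caller's ratio of signal over local background, went with low recurrence of SmoM2 peaks. Of the 19 SmoM2 peaks with a fold enrichment under 5, 4 were called in DKO tumours (21.1%, 8.51–43.3%), compared with 78 of the other 117 (66.7%, 57.7–74.6%). In the DKO list the shares were 3.39% (0.935–11.5%) of 59 and 5.98% (4.83–7.38%) of 1338 peaks, with intervals that overlap. Each fold enrichment is the authors' value for the peak and describes it only within its own list.

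SmoM2-only peaks of high rank were mostly outside H3K27ac regions, as were SmoM2-only peaks in general, and were about as wide as these. The 10 highest had widths between 115 and 165 bp. Their median was 132 bp, beside 131.5 bp for all SmoM2-only peaks and 138 bp for the whole list. The highest was on chromosome 11 at 3728216–3728351 (SmoM2 rank 4, fold enrichment 17.5), 5.34 kb from the nearest DKO summit. The peaks on chromosome 6 at 14363254–14363418 and chromosome 2 at 4730155–4730296 shared rank 11 (fold enrichment 12.9), and the nearest DKO summits lay 1117 and 438 kb away. These sites thus had no DKO peak in their wider surroundings. The peak on chromosome 13 at 69396223–69396337 (rank 13) was the narrowest of the 10. The peak on chromosome 8 at 15519864–15519983 had rank 16 with a fold enrichment of only 3.83. Of these 10 peaks, 9 overlapped no H3K27ac region of either genotype, and the peak on chromosome 6 at 51542366–51542505 overlapped one in both.

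The 10 highest DKO-only peaks were 210 to 676 bp wide (median 276.5 bp, beside 256 bp for all DKO-only peaks of the highest decile). All 10 overlapped an H3K27ac region of SmoM2 tumours and 7 also one of DKO tumours. Of the 97 DKO-only peaks of that decile, 66.0% overlapped H3K27ac of each genotype, so the 7 in DKO tumours were near that share. Over all 1315 DKO-only peaks the shares were 47.1% for SmoM2 and 52.7% for DKO tumours. On chromosome 11 at 120121212–120121523, the peak of DKO rank 12 (fold enrichment 39.6) lay 2.78 kb from a SmoM2 summit. The peak on chromosome 8 at 122841043–122841541 (rank 21) lay 12.6 kb from one. Others were far from any SmoM2 peak, such as the peak on chromosome 17 at 31563352–31563600 (rank 17), with the nearest SmoM2 summit 3885 kb away. The nearest was 927 kb from the peak on chromosome 2 at 33960699–33960908 (rank 18) and 13313 kb from that on chromosome 9 at 44527834–44528089 (rank 27). Peaks in the middle of each ranking were named for comparison. The 3 DKO peaks next to the median rank all had a fold enrichment of 10.0 and were not called in SmoM2 tumours, and the 3 such SmoM2 peaks had fold enrichments from 6.25 to 7.19, with 2 called in DKO tumours.

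Few SmoM2-only peaks were near misses. Their summits were a median of 591 kb from the nearest DKO summit (quartiles 197 and 2747 kb, n = 54), and 4 were within 10 kb (7.41%, 2.92–17.6%). Besides the pairs on chromosome 16 and on chromosome 11 at 3728216–3728351, these included a SmoM2 peak of rank 128 on chromosome 11 at 119385984–119386102. Its summit was 2.10 kb from that of the DKO-only peak at 119383795–119384470, which had DKO rank 10 and a fold enrichment of 43.1. The last was on chromosome 4 at 42085915–42086138 (SmoM2 rank 121, DKO summit 6.90 kb away). Of the 1315 DKO-only peaks, 38 were within 10 kb of a SmoM2 summit (2.89%, 2.11–3.94%).

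Summits lay closer together in the DKO list, although most peaks of both lists were isolated. The distance from a summit to the nearest other summit of its list was 152 kb at the median in the DKO list (quartiles 17.6 and 633 kb, n = 1397). In the SmoM2 list it was 5.22 Mb (1.18 and 14.5 Mb, n = 135, since 1 peak was alone on its chromosome). Another summit lay within 10 kb for 273 DKO peaks (19.5%, 17.5–21.7%) and for 2 SmoM2 peaks (1.47%, 0.404–5.20%). A longer list is denser by its length alone, so the spacing was also taken over the 136 highest DKO peaks. Their median spacing was 1.76 Mb, and 12 of them (8.82%, 5.12–14.8%) had another within 10 kb. That share was above the SmoM2 share, with intervals that overlap at their ends.

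**Figure D3:**
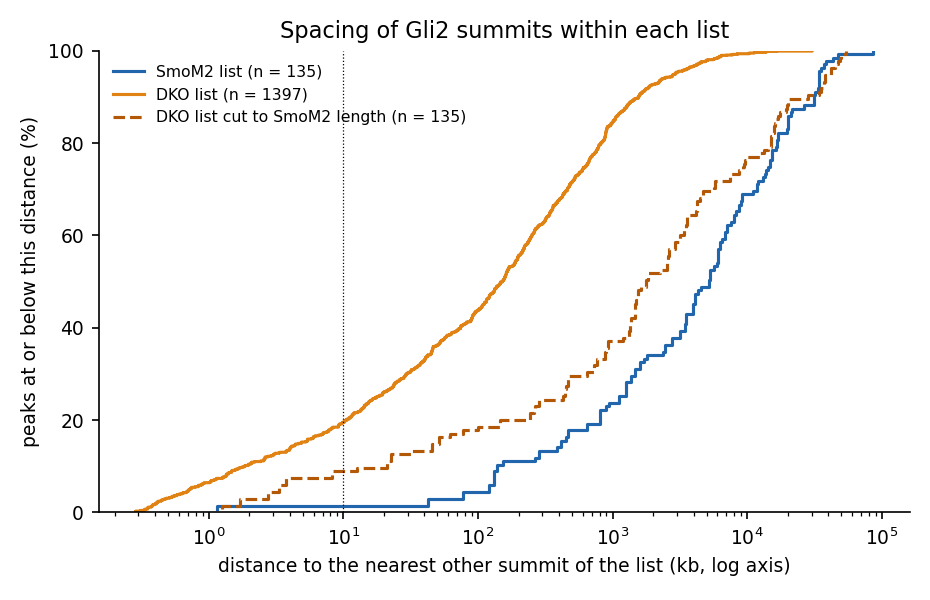
Cumulative share of peaks (vertical axis, %) by the distance to the nearest other summit of the same list (horizontal axis, kb, log scale) for the SmoM2 list, the DKO list and the DKO list cut to the length of the SmoM2 list. The dotted line marks 10 kb, below which lie 19.5% of all DKO peaks and 1.47% of SmoM2 peaks.

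With summits at most 10 kb apart joined into groups, the 273 DKO peaks formed 119 groups: 99 of 2 peaks, 16 of 3, and 1 of 5, 1 of 6 and 2 of 8. The only SmoM2 group held 2 peaks on chromosome 5 at 15164279–15165644, with summits 1143 bp apart, SmoM2 ranks 71 and 76 and no DKO match. Grouped DKO peaks were the wider, with a median of 188 bp (176–201) against 161 bp (158–165) for single ones. They ranked somewhat higher, with a median rank percentile of 44.2 (38.1–48.9) against 51.4 (48.7–53.4). H3K27ac of DKO tumours covered at least 1 base of 79.5% of grouped (74.3–83.9%) and 47.7% of single peaks (44.8–50.6%). For H3K27ac of SmoM2 tumours the shares were 75.1% (69.6–79.8%) and 42.3% (39.5–45.3%). Peaks of a group lie close together and may share 1 H3K27ac region, whereas the intervals treat peaks as independent. Recurrence in the SmoM2 list differed less, at 8.06% (5.38–11.9%) for grouped and 5.34% (4.17–6.81%) for single peaks.

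Of the 119 DKO groups, 22 contained a peak that was also called in SmoM2 tumours. Each held 1 such peak, which the SmoM2 list itself fixed, since only 1 pair of SmoM2 summits, both unmatched, lay close enough together to fall in 1 group. The remaining 41 peaks of these groups were called in DKO tumours only. In 17 of the 22 groups the matched peak was the highest-ranked of its group. The top site on chromosome 1 was one of these, with a second DKO peak 2.56 kb away at DKO rank 848. The group on chromosome 12 at 85887589–85889665 held DKO ranks 73 and 19, and the peak of rank 19 was the matched one. Most of the 22 groups held only a pair of peaks. Matched peaks also ranked higher over the whole DKO list, with a median rank percentile of 8.80 against 53.4 for DKO-only peaks. Whether the count of 17 exceeded what this ranking alone would give was not tested.

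The 4 largest groups each held 1 site called in both genotypes. Their coordinates are those of the outer peak edges, and their lengths run from the first to the last summit. The group on chromosome 8 at 122824534–122849496 held 8 DKO peaks over 24.8 kb, all within H3K27ac regions of both genotypes. Its matched peak had DKO rank 26 (fold enrichment 32.3) and SmoM2 rank 91, whereas its highest peak, of DKO rank 21 (32.5), was in the DKO list only. The group on chromosome 13 at 63654029–63675068 also held 8 peaks, over 20.6 kb and likewise all within H3K27ac of both genotypes. There 4 peaks had nearly equal strength, with DKO ranks 68, 68, 79 and 83 and fold enrichments from 22.5 to 24.4. Only the one of rank 79 was called in SmoM2 tumours, at SmoM2 rank 23. Equal strength in DKO tumours thus did not go with equal calling in SmoM2 tumours. The group on chromosome 11 at 120115917–120125481 held 6 peaks over 9.03 kb, among them the widest DKO peak. Its SmoM2 peak (rank 106) matched the DKO peak of rank 124 (fold enrichment 18.7), not the one of rank 12 (39.6). The group on chromosome 4 at 119936218–119962399 held 5 peaks over 25.9 kb. Its matched peak, of DKO rank 8 (44.4) and SmoM2 rank 58, stood well above the other 4, whose fold enrichments ran from 8.32 to 14.7.

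Of the 16 groups of 3, the one with the highest-ranked member was on chromosome 18. It spanned 842 bp from the first to the last summit, and none of the 16 contained a matched peak. The next, on chromosome 9 at 44527834–44529534, spanned 1453 bp between its outer summits. Its DKO ranks were 27, 604 and 535, with all 3 peaks in H3K27ac of both genotypes.

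**Figure D4:**
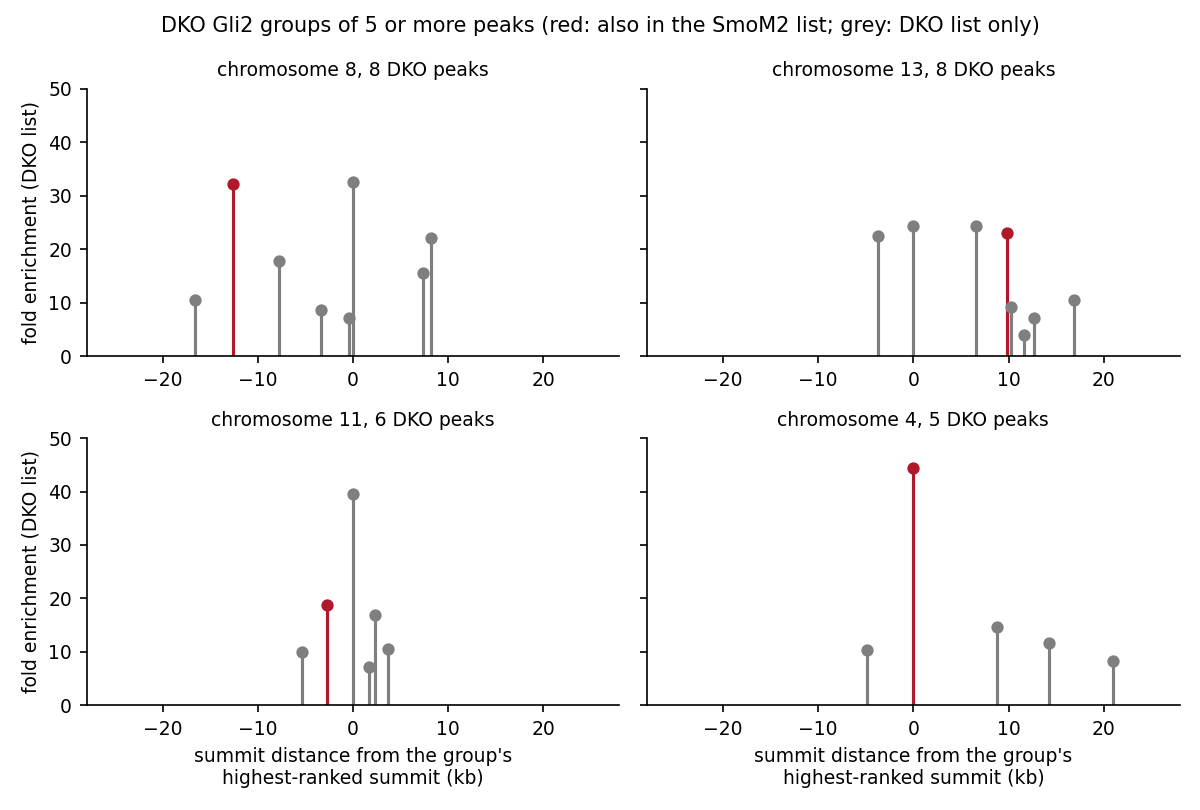
The 4 DKO groups of 5 or more Gli2 peaks, with the distance of each summit from the group's highest-ranked summit (horizontal axis, kb) and its fold enrichment in the DKO list (vertical axis). Red marks the 1 peak per group that was also called in SmoM2 tumours. It is the highest only in the chromosome 4 group, and on chromosome 13 the peak at 0 ties with another in rank.

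To ask whether recurrent sites differed in acetylation at like rank, overlap with H3K27ac regions was compared within parts of each ranking. In the highest decile of the DKO list, 38 of 43 matched peaks overlapped H3K27ac of SmoM2 tumours (88.4%, 75.5–94.9%) and 64 of 97 DKO-only peaks did (66.0%, 56.1–74.6%). The difference was 22.4 percentage points (Newcombe 95% interval 6.90–34.2). For H3K27ac of DKO tumours, 39 of 43 (90.7%, 78.4–96.3%) and again 64 of 97 overlapped, a difference of 24.7 points (9.68–36.1). Within this decile the matched peaks still gathered at the top, as 29 of the 51 highest DKO peaks were matched. In the next decile the difference was 21.2 points (-3.28 to 37.1) for H3K27ac of SmoM2 tumours and -8.38 points (-31.6 to 13.4) for that of DKO tumours, so none was detectable there. The 8 lower deciles held between 0 and 7 matched peaks each. In the highest of these, 3 of 7 matched and 67 of 133 DKO-only peaks overlapped H3K27ac of SmoM2 tumours, a difference of -7.52 points (-35.8 to 25.7). In decile 5 the order was the reverse of that at the top: 0 of 5 matched and 71 of 135 DKO-only peaks overlapped it, a difference of -52.6 points (-60.8 to -8.34). The intervals of the other lower deciles with matched peaks included 0 for both genotypes' H3K27ac, as did those of these 2 deciles for H3K27ac of DKO tumours. A higher share of matched peaks was thus detectable in the top decile only, and decile 5 had the reverse for H3K27ac of SmoM2 tumours. With 18 matched peaks in the decile after the top and 0 to 7 in each lower one, the other deciles cannot show that a difference is absent.

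Part of the list-wide contrast in these shares went with rank. Over the whole DKO list, 74.4% of matched and 47.1% of DKO-only peaks overlapped H3K27ac of SmoM2 tumours. When the DKO-only share was weighted to the ranks of the matched peaks, it was 59.1%. For H3K27ac of DKO tumours the shares were 73.2% and 52.7%, and 62.0% after weighting. The weighted shares lie between the other 2 in both cases.

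In the SmoM2 list the contrast between matched and SmoM2-only peaks was compared in the same way. In its highest quartile, 14 of 20 matched peaks (70.0%, 48.1–85.5%) and 2 of 14 SmoM2-only peaks (14.3%, 4.01–39.9%) overlapped H3K27ac of SmoM2 tumours, a difference of 55.7 points (22.0–74.3). For H3K27ac of DKO tumours it was 16 of 20 (80.0%, 58.4–91.9%) and 3 of 14 (21.4%, 7.57–47.6%), a difference of 58.6 points (24.6–76.9). In the next quartile the difference was 38.6 points (1.74–67.6) for H3K27ac of SmoM2 and 2.65 points (-25.0 to 40.4) for H3K27ac of DKO tumours. In the quartile after it, these were 17.9 points (-12.8 to 46.0) and 50.7 points (17.1–70.5). In the lowest they were 38.9 points (6.01–62.7) and 32.3 points (0.102–57.5). Matched peaks had the higher share in all 8 of these comparisons, and the interval excluded 0 in 6. The intervals treat peaks as independent, are not adjusted for their number and say nothing about variation between animals.

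**Figure D5:**
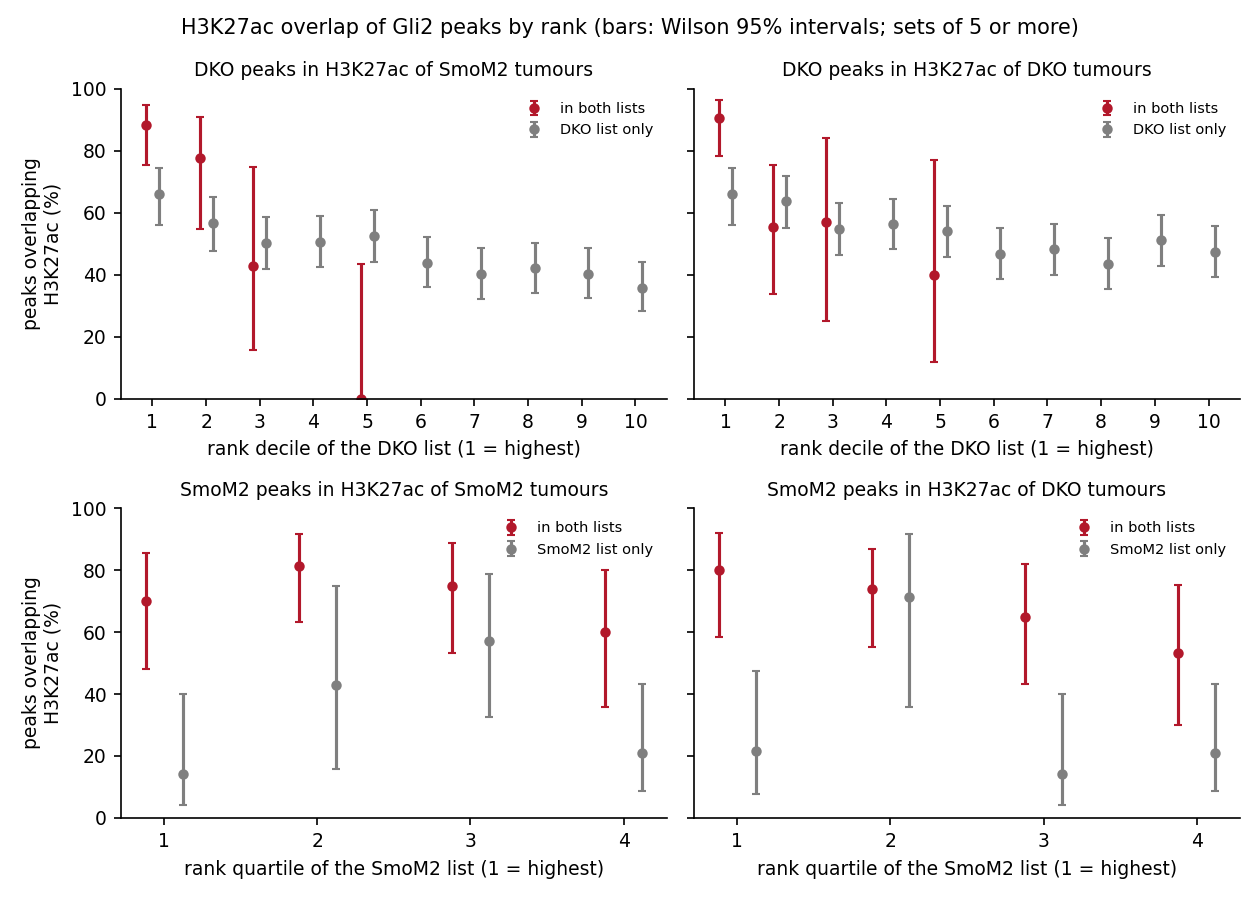
Share of Gli2 peaks overlapping H3K27ac regions of SmoM2 (left) and DKO tumours (right), by rank deciles of the DKO list (top) and rank quartiles of the SmoM2 list (bottom), for matched peaks (red) and peaks of 1 list only (grey). Points are shares in % with Wilson 95% intervals, for sets of 5 or more peaks. In the highest SmoM2 quartile the shares are 70.0% and 14.3% on the left.

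Recurrence was spread over the chromosomes with small numbers on each. Chromosome 2 had the most matched sites, 12 of its 17 SmoM2 peaks, followed by chromosome 5 with 10 of 16 and chromosome 8 with 9 of 13. All 3 SmoM2 peaks of chromosome 14 were matched. None of the 4 on chromosome 17 was, although the DKO list held 56 peaks there. Counts this small do not distinguish chromosomes.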

How the data were processed

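Samples were grouped by genotype and antibody as given in the labels. Each list stands for both libraries of its group, and the labels do not say how these were combined. The labels' protocol also names an Olig2 antibody on the beads, so lists are named by the antibody given for each sample. The tools named in the submitters' processing notes are MACS2, bedtools, BWA and Trimmomatic 0.36, with build mm9. What each did, and with which settings, was not stated there or in the labels. The deposited columns hold the start, end and summit of each peak, the authors' fold enrichment (a ratio over the caller's background) and the authors' q-value as −log10. The H3K36me3 lists were not used.

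Peaks on chromosomes 1 to 19 were kept and matched by at least 1 shared base. Ranks follow −log10 q. Shares have Wilson and differences Newcombe 95% intervals, and medians have binomial order-statistic intervals. No hypothesis test was run, because each genotype has 1 list. Matching, spacing and overlap were tested on simulated lists. Alternatives were stricter thresholds, other definitions of a match, joined peaks, a DKO list of equal length, all sequences and rank by fold. The sites named were the matched sites with the lowest sum of ranks (10), the largest difference in rank percentile in either direction (5 each) and the largest summit distance (5). They also were the widest peaks (5), the highest unmatched peaks (10) and the peaks next to the median rank (3) of each list, and the largest groups. A few of each are printed. Members and rules were chosen with earlier results of these data known. Computation used matplotlib 3.10.9, statsmodels 0.14.6, scipy 1.17.1, pandas 2.3.3 and numpy 2.4.6 under Python 3.11.15.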

Additional observations from a re-analysis of the deposited data

Results flagged for a closer look

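Gli2 peaks outside chromosomes 1 to 19 entered none of the comparisons above and are given as a signal in data left out of them, with no control list beside them. The SmoM2 list held 4 such peaks on chromosome X, 8 on chromosome Y and 1 on the mitochondrial sequence, and the DKO list 12 on chromosome X and 17 on chromosome Y. No SmoM2 peak on chromosome X was matched in DKO tumours, and 3 on chromosome Y were. Fold enrichments on chromosome Y were low in both lists, from 1.69 to 2.37 in the SmoM2 and from 1.73 to 3.72 in the DKO list.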

How the results depend on the processing

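Of 92 values recomputed under alternatives, 75 stayed within the interval of the reported value and 17 moved further. For the ratio of peak numbers and rho, the limit was 1.5 times the value instead. The sign reversed in 0, but only rho and the differences in H3K27ac share can be negative. For all other values this outcome was fixed beforehand. A threshold of 10 on −log10 q gave a ratio of peak numbers of 15.8. The matched share of the DKO list was then 4.06%, the DKO median width 182 bp, the share with another summit within 10 kb 0% for SmoM2 and 16.2% for DKO peaks, the median rank percentile of matched SmoM2 peaks 56.6 and rho of ranks 0.080. With a threshold of 5, rho was 0.19. With the DKO list cut to the length of the SmoM2 list, the matched share of each list was 31.6%, the DKO median width 272.5 bp, the share of DKO peaks with another within 10 kb 8.82%, the median DKO rank percentile of matched peaks 23.2 and rho 0.50. That share was 12.9% with peaks at most 1000 bp apart joined, 15.2% with a limit of 5 kb and 36.2% with one of 50 kb. The shortened lists hold fewer peaks and keep only those of highest −log10 q, with which called width also grew. How far either set these values, rho included, was not tested. The median summit distance stayed between 10 and 15 bp under its 8 alternatives. No paired analysis was possible because the replicates of a genotype enter 1 joint list, and for this reason no replicate could be left out in turn. The motif search was not run, since no genome of build mm9 was used.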
